A study of Papio anubis with 25 samples.

Results

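Fluid and enzyme secretion by exocrine glands is switched on by nerves and gut hormones, and the receptors examined here are the proteins on gland cells that receive those signals. The set held 7 genes chosen by name: the muscarinic acetylcholine receptors CHRM1 and CHRM3, the adrenergic receptors ADRA1A and ADRB1, and the peptide receptors VIPR1, CCKAR and SCTR. All 7 symbols were in the table of 21287 genes. RNA had been sequenced from the parotid, submandibular and sublingual glands, the pancreas and the liver of 5 olive baboons (Papio anubis), 25 libraries in all, 1 from each animal and tissue. Of the animals, numbers 1 to 4 are labelled female and number 5 male; the salivary glands were left glands, and each library came from thin sections of flash-frozen tissue, so a library holds the mixture of cells in those sections. The labels name no treatment and no age. The series was built to compare salivary glands with pancreas, and pancreas with liver, within the same animals.

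As background, acetylcholine from parasympathetic nerves acts on muscarinic receptors. CHRM1, CHRM3 and the alpha-1 adrenergic receptor ADRA1A couple mainly to Gq proteins, which release calcium from internal stores and drive fluid secretion. The beta-1 adrenergic receptor ADRB1, the vasoactive intestinal peptide receptor VIPR1 and the secretin receptor SCTR couple mainly to Gs proteins and raise cyclic AMP, which drives protein exocytosis in salivary acini and bicarbonate secretion in pancreatic ducts. CCKAR is the receptor for cholecystokinin, the gut hormone that triggers enzyme release from the pancreas.

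Levels are given in TPM, a share of the library's transcripts corrected for transcript length, so values can be set side by side between genes. A receptor was counted as detected in a library at 0.5 TPM or more. By that limit VIPR1 was detected in 25 of 25 libraries, SCTR in 16, CHRM3 in 12, ADRB1 in 10, ADRA1A in 9, CHRM1 in 7 and CCKAR in 6. Of all genes in the table, 46.3% to 70.7% reached 0.5 TPM in a parotid library and 60.6% to 63.9% in a liver library. The number of reads behind a library is unknown, so a low value carries no counting error and a value listed at 0 TPM does not show absence. Values of 0 TPM were listed for CHRM1 in 1 library, ADRA1A in 1 and CCKAR in 2, and the receptors reached at most 47.8 TPM.

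**Figure D1:**
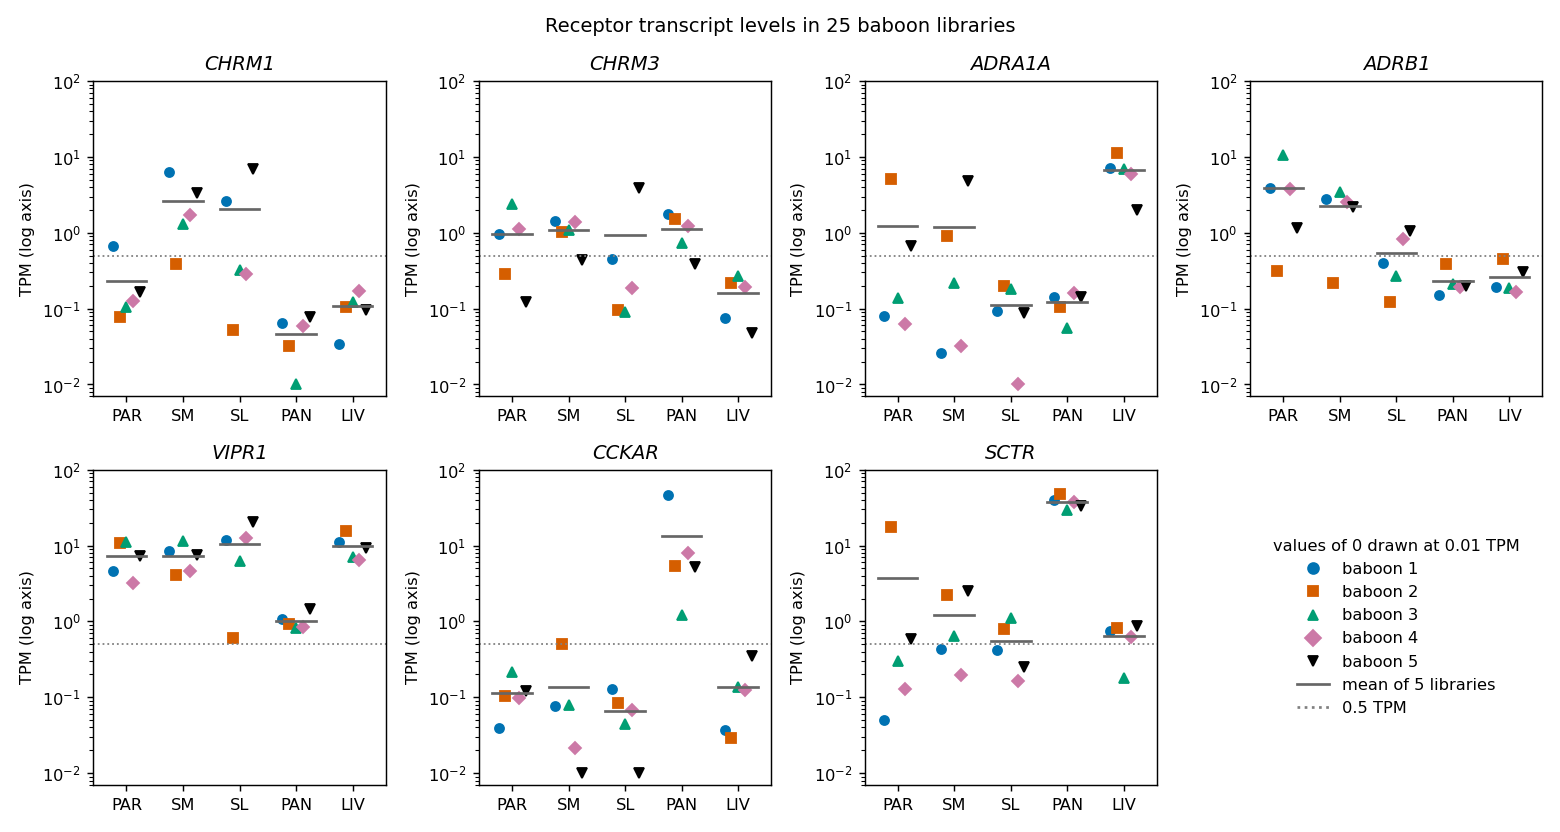
Transcript level of each receptor in TPM (log axis) in parotid (PAR), submandibular (SM) and sublingual gland (SL), pancreas (PAN) and liver (LIV). Each symbol is the library of 1 animal, the grey bar is the mean of 5 libraries and the dotted line marks 0.5 TPM; SCTR and CCKAR stand highest in pancreas, ADRA1A in liver and ADRB1 in parotid and submandibular gland.

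The pancreas and liver libraries matched their labels in the main tissue markers. The acinar markers did not set every salivary gland library apart, and several gland sections held other tissue. The pancreatic acinar markers CPB1, CTRB2, CPA1 and CELA3B summed to 54982 to 114076 TPM in pancreas and at no more than 1656 TPM in any other library. The summed hepatocyte genes (ALB, APOA1 and TTR) were at 37626 to 62282 TPM in liver and at no more than 885 TPM elsewhere. AQP5, the water channel of salivary acini, did not exceed the highest liver library (3.904 TPM) in 4 of the 15 gland libraries: the parotid libraries of baboons 2 and 5 and the sublingual libraries of baboons 2 and 4. In the parotid of baboon 5 the other listed acinar genes were divided. BHLHA15 (55.4 TPM) and PIP (1098 TPM) exceeded liver (at most 2.93 and 1092 TPM), and LPO (5.88 TPM) did not (up to 7.05 TPM). The sum of these acinar genes and AQP5 overlapped between parotid (404 to 1163 TPM), liver (133 to 1104 TPM) and pancreas (428 to 1036 TPM). It ran from 325 to 11331 TPM in submandibular and from 274 to 61773 TPM in sublingual gland. The summed adipocyte genes (ADIPOQ, PLIN1, CIDEC and LEP) reached 4848 TPM for the parotid of baboon 2, 1156 TPM for the submandibular gland of baboon 5 and 343 TPM for that of baboon 2, against 2.93 to 34.99 TPM in the other 12 gland libraries. For the parotid of baboon 5, lymphoid genes summed to 737 TPM. Plasma cell genes (JCHAIN, MZB1 and DERL3) summed to 2899 TPM there, the highest of the parotid libraries. Skeletal muscle genes summed to 61401 TPM for the sublingual gland of baboon 2. Stratified epithelium genes summed to 76132 TPM for the sublingual gland of baboon 1 and to 18202 TPM for that of baboon 4. In bulk tissue, fewer cells of a type cannot be told apart from less RNA per cell, which applies to every difference below.

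Tissue differences were tested with limma on log2(TPM + 1) across the 14991 genes whose mean reached 1 TPM in any tissue, with the animal as a block and Benjamini-Hochberg adjustment over those genes. All 7 receptors passed that filter, VIPR1 in 5 of 5 tissues, ADRA1A and SCTR in 3, CHRM1, CHRM3 and ADRB1 in 2, and CCKAR in pancreas alone. The pseudocount makes fold changes of such low genes smaller than the ratio of their TPM values. Over the 5 tissues, 6 of the 7 receptors differed by the moderated F test at an adjusted p under 0.05, against 21.6% of all genes tested. CHRM3 was the exception (limma adjusted p = 0.326). The count was 3 without baboon 1, 4 without baboon 3 and 7 without baboon 5. The share of all genes that differed in those fits is not given here, so these counts have no background beside them. A pairwise difference is called below where its adjusted p was under 0.05 and the size of its log2 fold change was 1 or more.

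The muscarinic receptors had different tissue patterns. CHRM3, the receptor through which acetylcholine drives most salivary fluid, was low everywhere it was found. Its levels in baboons 1 to 5 were 0.955, 0.287, 2.37, 1.11 and 0.122 TPM in parotid and 1.42, 1.02, 1.10, 1.38 and 0.434 TPM in submandibular gland. In sublingual gland they were 0.456, 0.0957, 0.0911, 0.185 and 3.87 TPM, so that the library of baboon 5 alone reached 0.5 TPM. Pancreas held 1.79, 1.53, 0.729, 1.22 and 0.382 TPM, and liver 0.0747, 0.214, 0.273, 0.190 and 0.0476 TPM. Every pancreas and every submandibular library lay above the highest liver library, while parotid and sublingual libraries overlapped with liver. The mean order was pancreas (1.13 ± 0.573 TPM, SD, n = 5), submandibular gland (1.07 ± 0.396 TPM), parotid (0.969 ± 0.891 TPM), sublingual gland (0.941 ± 1.65 TPM) and liver (0.160 ± 0.0954 TPM). No neighbours in that order differed beyond their spread (limma adjusted p from 0.471 to 1). The largest pairwise log2 fold change of CHRM3, pancreas over liver, was 0.83 (SE 0.37, limma adjusted p = 0.139). Under TMM scaling, which corrects for a few dominant genes, it was 1.07 with a limma adjusted p of 0.0490, and over 14 alternatives the adjusted p ran from 0.00322 to 0.399. Among genes with a symbol, those whose log2 levels followed CHRM3 most closely over the 25 libraries were DAGLA (Pearson r = 0.84), BCAT1 (0.81) and RAVER2 (0.81). Tissue, animal and library composition are shared by all such correlations.

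CHRM1, the muscarinic receptor best known from brain and also found in mucous salivary cells, had its highest levels in submandibular gland and in single sublingual libraries. In submandibular gland it was at 6.27, 0.385, 1.30, 1.72 and 3.30 TPM in baboons 1 to 5. In sublingual gland it was at 2.66, 0.0518, 0.325, 0.283 and 6.97 TPM, high in baboons 1 and 5 and under 0.5 TPM in the other 3. Parotid held 0.665, 0.0780, 0.106, 0.125 and 0.166 TPM, liver 0.0341 to 0.172 TPM and pancreas from 0 to 0.0774 TPM. All submandibular libraries lay above all pancreas and all liver libraries. CHRM1 rose by 1.55 on the log2 scale in submandibular gland against pancreas (SE 0.37, limma adjusted p = 0.0144) and by 1.47 against liver (SE 0.37, limma adjusted p = 0.00665), in 5 of 5 animals each time. The call against pancreas was lost without baboon 1, 3 or 4 (limma adjusted p = 0.172, 0.0716 and 0.0737) and that against liver without baboon 1 (0.0935). Over 14 alternatives the adjusted p ran from 0.000877 to 0.172 and from 0.00118 to 0.0935. In sublingual gland CHRM1 was not called, with a log2 fold change of 1.08 against pancreas (limma adjusted p = 0.0666) and 1.00 against liver (limma adjusted p = 0.0739). CHRM1 was also higher in submandibular gland than in parotid in 5 of 5 animals, but that pair had 0 calls among all genes (0% called) and CHRM1 had a log2 fold change of 1.34 in size with an adjusted p of 1 by limma. The order of means was submandibular gland, sublingual gland, parotid, liver and pancreas, and no neighbours in it differed (limma adjusted p from 0.458 to 0.937).

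The balance between both muscarinic receptors can be read within a library, where scaling between libraries plays no part. Of the CHRM1 and CHRM3 sum, CHRM1 made up 64.7 ± 19.4% in sublingual gland (SD, n = 5), 61.4 ± 24.4% in submandibular gland, 26.9 ± 22.2% in parotid and 5.38 ± 6.63% in pancreas. CHRM1 exceeded CHRM3 in 4 of 5 sublingual, 4 of 5 submandibular, 1 of 5 parotid and 0 of 5 pancreas libraries, and in 1 of 5 liver libraries, where its share was 42.1 ± 15.6%. In the parotid libraries of baboons 2 and 5, the sublingual libraries of baboons 2, 3 and 4, the pancreas library of baboon 5 and all liver libraries both receptors were under 0.5 TPM, so these shares rest on low values. The submandibular and sublingual exceptions were both from baboon 2. The gene most like CHRM1 over the 25 libraries was MUC19, a gel-forming mucin (Pearson r = 0.95), followed by CAPN9 (0.92) and ST6GALNAC1 (0.91), an enzyme of mucin glycosylation. In the sublingual libraries of baboons 1 and 5, where CHRM1 was high, MUC19 was at 20.6 and 95.6 TPM, against 0.853 to 1.34 TPM in the other 3. MUC19 was chosen by its correlation over the same libraries, so this likeness is not independent of that choice.

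The adrenergic receptors divided between glands and liver. ADRB1, through which noradrenaline triggers protein secretion from salivary acini, was at 3.85, 0.310, 10.5, 3.75 and 1.15 TPM in the parotid of baboons 1 to 5. In submandibular gland it was at 2.81, 0.219, 3.48, 2.58 and 2.22 TPM, in sublingual gland at 0.405, 0.123, 0.270, 0.835 and 1.04 TPM. Pancreas did not exceed 0.392 TPM and liver did not exceed 0.454 TPM. In 4 of 5 parotid and 4 of 5 submandibular libraries ADRB1 lay above every pancreas and liver library, and the exception in both glands was baboon 2. Those 2 libraries were the parotid and submandibular sections highest in endothelial genes, with a sum of 248 and 206 TPM, and the lowest of their gland in AQP5, at 2.25 and 5.40 TPM. The part of section content in the ADRB1 level was not tested.

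ADRB1 rose by 1.62 in parotid against pancreas (SE 0.39, limma adjusted p = 0.0141) and by 1.58 in parotid against liver (SE 0.39, limma adjusted p = 0.00552), in 4 of 5 animals each. In submandibular gland it rose by 1.25 against liver (SE 0.39, limma adjusted p = 0.0265), while the difference from pancreas was 1.29 with an adjusted p of 0.0660 by limma. The parotid against pancreas call was lost without baboon 1, 3 or 4 (limma adjusted p = 0.0985, 0.181 and 0.0885) and with only these tissues in the fit (0.0517). Its adjusted p over 14 alternatives ran from 0.00042 to 0.181. The parotid against liver call was lost without the same animals (0.0546, 0.0802 and 0.0577, range 0.000119 to 0.0802), and the submandibular call without baboon 1, 3, 4 or 5 (0.151, 0.0934, 0.147 and 0.0641, range 0.00252 to 0.151). The order of means was parotid (3.92 ± 4.02 TPM, SD, n = 5), submandibular gland (2.26 ± 1.23 TPM), sublingual gland (0.534 ± 0.387 TPM), liver (0.261 ± 0.121 TPM) and pancreas (0.229 ± 0.0939 TPM), with no neighbours called. Within single libraries, ADRB1 exceeded CHRM3 in all 5 from parotid, in 4 from submandibular gland, in 3 from sublingual gland, in 3 from liver and in 0 from pancreas. Its closest genes over the 25 libraries were LMX1B (Pearson r = 0.93), FRMPD1 (0.93) and TFAP2B (0.93); LMX1B and TFAP2B encode transcription factors.

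ADRA1A, an alpha-1 receptor that answers noradrenaline through calcium, was a liver receptor in these data. Liver held 7.12, 11.2, 6.91, 5.89 and 2.02 TPM in baboons 1 to 5, and every liver library lay above every pancreas library (0.0547 to 0.162 TPM) and every sublingual library (0 to 0.200 TPM). ADRA1A fell by 2.63 on the log2 scale from liver to pancreas (SE 0.44, limma adjusted p = 7.8e-05) and by 2.65 from liver to sublingual gland (SE 0.44, limma adjusted p = 9.2e-05). Parotid and submandibular gland were lower than liver by 2.05 and 2.03 in size (SE 0.44 each, limma adjusted p = 0.00167 for both), and these 4 calls were kept under each of 15 alternatives, with an adjusted p of at most 0.0317. Liver stood first in the mean order and differed from the next tissue, parotid; the others, in the order parotid, submandibular gland, pancreas and sublingual gland, did not differ from their neighbours (limma adjusted p from 0.718 to 1). CDO1 (Pearson r = 0.95) and GHR (0.95), the growth hormone receptor, were among the 3 genes most like ADRA1A over the 25 libraries.

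In parotid and submandibular gland, ADRA1A was high in single libraries only. Parotid held 0.0799, 5.16, 0.137, 0.0623 and 0.673 TPM and submandibular gland 0.0258, 0.894, 0.215, 0.0325 and 4.84 TPM in baboons 1 to 5. The highest values were thus in the parotid of baboon 2 and the submandibular gland of baboon 5, the libraries with the highest summed adipocyte genes, and the third highest, 0.894 TPM, was in the submandibular library with the third highest adipocyte sum. The same 3 libraries also held the highest summed nerve and glia genes of these 10 gland libraries, at 810, 600 and 193 TPM against 2.60 to 49.2 TPM in the other 7. The part of these cell types in the ADRA1A level was not tested. Without the first 2 of these libraries the log2 fold change of the mean of the glands against liver was still called, as under each of 15 alternatives (range -4.04 to -2.07).

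**Figure D2:**
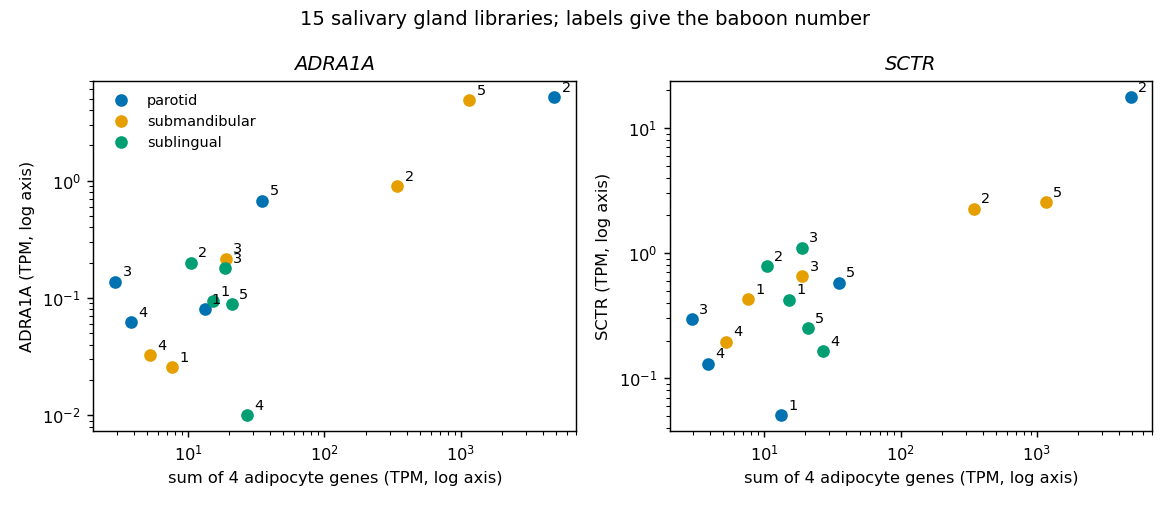
ADRA1A (left) and SCTR (right) in TPM against the sum of ADIPOQ, PLIN1, CIDEC and LEP in TPM in the 15 salivary gland libraries, both axes logarithmic, with the baboon number beside each point. The parotid library of baboon 2 and the submandibular libraries of baboons 2 and 5 hold the 3 highest adipocyte sums and the 3 highest values of each receptor among all gland libraries; a value of 0 TPM is drawn at 0.01 TPM.

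Of the peptide receptors, SCTR and CCKAR were pancreas receptors in these data and VIPR1 was lowest there. SCTR, the receptor for secretin, had the highest mean of the 7 receptors in pancreas, at 40.2, 47.8, 29.4, 37.7 and 33.2 TPM in baboons 1 to 5, or 37.7 ± 7.04 TPM (SD, n = 5). That placed it at the 94.5 to 96.2 percentile of all genes in each pancreas library. Liver held 0.751, 0.811, 0.181, 0.633 and 0.884 TPM, sublingual gland 0.165 to 1.10 TPM and submandibular gland 0.195 to 2.56 TPM. In parotid 4 libraries were at 0.0506 to 0.580 TPM, and that of baboon 2, with the highest adipocyte sum, was at 17.7 TPM. All pancreas libraries lay above all others. SCTR was higher in pancreas than in liver by 4.55 (SE 0.48, limma adjusted p = 7.64e-08). It fell by 4.15 from pancreas to parotid (SE 0.48, limma adjusted p = 1.87e-06), by 4.25 to submandibular gland (adjusted p = 1.22e-06 by limma) and by 4.66 to sublingual gland (adjusted p = 2.93e-07 by limma). Each was called under all 15 alternatives, with sizes from 3.87 in parotid to 6.07 in sublingual gland, and the 4 other tissues, in the order parotid, submandibular gland, liver and sublingual gland, did not differ from their neighbours.

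CCKAR, the cholecystokinin receptor, was detected in 5 of 5 pancreas libraries and in 1 of 20 others. Pancreas held 46.6, 5.44, 1.22, 7.94 and 5.28 TPM in baboons 1 to 5, so that the animals differed far more for CCKAR than for SCTR: the standard deviation of 18.8 TPM exceeded the mean of 13.3 TPM. The lowest pancreas library, of baboon 3, was still above the highest other library, the submandibular gland of baboon 2 at 0.506 TPM. CCKAR was higher in pancreas than in liver by 2.87 (SE 0.44, limma adjusted p = 2.35e-05), and fell from pancreas to parotid, submandibular and sublingual gland by 2.89, 2.88 and 2.95 (SE 0.44 each, limma adjusted p = 0.000101, 0.000102 and 7.46e-05). CCKAR passed the filter through pancreas alone, so these 4 calls are not independent of that filter. All 4 calls were kept under 15 alternatives, which include a fit with no filter on low values. Without baboon 1 the mean pancreas level was 4.97 TPM and the sizes remained at least 2.20. In baboons 1 and 3, where CCKAR was highest and lowest, SCTR was at 40.2 and 29.4 TPM and the summed pancreatic acinar genes at 86233 and 68650 TPM. The summed islet genes (INS, GCG and SST) were at 5562 and 4713 TPM in these 2 libraries, and at 563 to 13518.5 TPM over all pancreas libraries. Of these, GCG was at 280 TPM in baboon 1 and at 6.17 TPM in baboon 3. The part of section content in the CCKAR level was not tested. The genes most like CCKAR over the 25 libraries were CTNND2 (Pearson r = 0.96), KIRREL2 (0.93) and SPSB4 (0.93). In pancreas, CTNND2, KIRREL2 and SPSB4 were each highest in baboon 1 (3.27, 2.69 and 31.8 TPM). CTNND2 was lowest in baboon 3 (0.910 TPM), while KIRREL2 and SPSB4 were lowest in baboon 5 (1.09 and 5.76 TPM). These genes were chosen by their correlation over the same libraries, so this likeness is not independent of that choice.

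Pancreatic enzyme transcripts also appeared at low levels outside the pancreas. As a share of its pancreas mean, CCKAR was at 0% to 3.81% in the other 20 libraries. The enzyme genes were at 0.122% to 1.98% (CPA1), 0.107% to 1.74% (CPB1), 0.148% to 2.46% (CELA3B) and 0.229% to 3.95% (CTRB2). SCTR was at 0.481% to 2.34% in liver, where CPA1 was at 0.603% to 1.14% and CTRB2 at 0.675% to 1.97%. In sublingual gland SCTR was at 0.438% to 2.93%, where CPA1 was at 0.377% to 1.63% and CTRB2 at 0.582% to 2.01%. In the parotid of baboon 2 and the submandibular glands of baboons 2 and 5 SCTR was at 46.9%, 6.00% and 6.78%, where CPA1 was at 0.875%, 1.98% and 0.355%. The submandibular library of baboon 2, which had the highest CPA1 share, also had the highest CCKAR share. Whether low values outside the pancreas come from carried-over RNA was not tested.

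VIPR1, the receptor for vasoactive intestinal peptide, had its lowest level in pancreas. Pancreas held 1.08, 0.935, 0.814, 0.836 and 1.47 TPM in baboons 1 to 5. Parotid held 4.65, 10.7, 11.2, 3.18 and 7.28 TPM, submandibular gland 8.56, 4.12, 11.3, 4.56 and 7.54 TPM, and liver 11.05, 15.8, 6.97, 6.44 and 9.18 TPM. All libraries of these 3 tissues lay above all pancreas libraries. Sublingual gland held 11.9, 0.599, 6.29, 12.5 and 20.8 TPM, and the low library was that of baboon 2, dominated by skeletal muscle genes. Pancreas was lower than liver by 2.37 in size (SE 0.51, limma adjusted p = 0.00124), a call kept under 15 alternatives (adjusted p at most 0.0125). Against pancreas, parotid VIPR1 rose by 1.94 (SE 0.51, limma adjusted p = 0.0263), by 1.95 in submandibular gland (adjusted p = 0.0251 by limma) and by 2.07 in sublingual gland (adjusted p = 0.0127 by limma). These 3 calls were lost without baboon 1, 3, 4 or 5, although the sizes stayed between 1.74 and 2.13. The adjusted p without those animals was 0.0801, 0.249, 0.0579 and 0.0791 in parotid, 0.156, 0.231, 0.0864 and 0.0675 in submandibular gland, and 0.106, 0.0684, 0.0802 and 0.0714 in sublingual gland by limma. The parotid call was also lost without the libraries of baboons 2 (parotid) and 5 (submandibular gland) that held adipocyte genes (adjusted p = 0.129 by limma; all alternatives 0.00934 to 0.249).

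In mean level VIPR1 ran from sublingual gland (10.4 ± 7.53 TPM, SD, n = 5) over liver (9.88 ± 3.76 TPM), parotid (7.40 ± 3.55 TPM) and submandibular gland (7.23 ± 2.98 TPM) to pancreas (1.03 ± 0.270 TPM), and only submandibular gland and pancreas, as neighbours, differed. TMM scaling moved submandibular gland to the first place, at 10.9 TPM. TRIM3 (Pearson r = 0.85), TSPAN6 (0.84) and OAT (0.84) were the genes most like VIPR1.

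**Figure D3:**
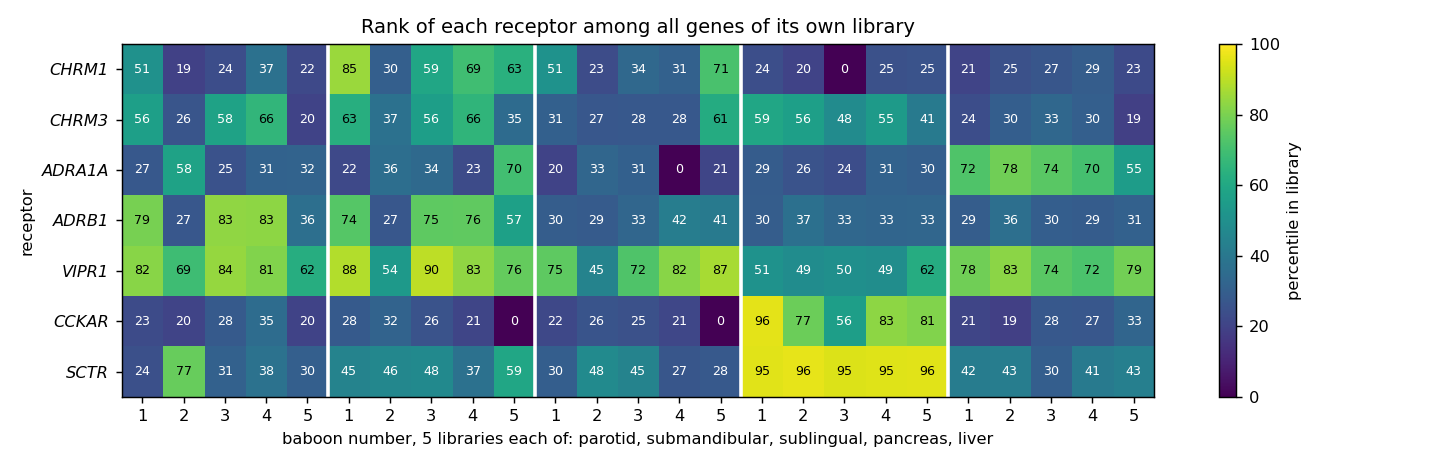
Percentile of each receptor among the 21287 genes of its own library (colour and number; a value of 0 TPM has percentile 0), with libraries in columns by tissue and baboon number. SCTR lies between 94.5 and 96.2 in all pancreas libraries and VIPR1 between 48.6 and 61.8 there, while ADRB1 lies above 70 in 3 parotid and 3 submandibular libraries.

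Counted by comparison, 4 of 7 receptors were called in parotid against pancreas, where 3.82% of all genes tested were called (1.41% higher and 2.4% lower in parotid): ADRB1 and VIPR1 were higher, CCKAR and SCTR lower. In submandibular gland against pancreas 4 of 7 were called, against 4.08% of all genes (1.27% higher and 2.81% lower), with CHRM1 and VIPR1 higher and CCKAR and SCTR lower. Sublingual gland against pancreas gave 3 of 7, against 9.47% (6.97% higher and 2.49% lower), with VIPR1 higher and CCKAR and SCTR lower. Pancreas against liver gave 4 of 7, against 17.5% (2.86% higher and 14.6% lower), with SCTR and CCKAR higher and ADRA1A and VIPR1 lower. The mean of the 3 glands against liver gave 2 of 7, against 18.2% (5% higher and 13.2% lower): ADRB1 was higher by 1.03 (SE 0.32, limma adjusted p = 0.0222) and ADRA1A lower by 2.24 in size (SE 0.36, adjusted p = 4.21e-05 by limma). The ADRB1 call there was lost without baboon 1, 3 or 4 (limma adjusted p = 0.114, 0.0965 and 0.127; range over alternatives 0.00179 to 0.127).

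Gland by gland against liver, the receptors called in parotid were 2 of 7 (ADRB1 higher, ADRA1A lower), where 13.8% of all genes were called, 2.84% higher and 10.9% lower. In submandibular gland they were 3 of 7 (CHRM1 and ADRB1 higher, ADRA1A lower), against 16.5% of all genes, 2.61% higher and 13.9% lower. In sublingual gland ADRA1A alone was called, lower, against 15.4% of all genes, 5.93% higher and 9.52% lower. Between the salivary glands limma called 0 of 7 receptors. Parotid against submandibular gland had 0% of all genes called, and 1 receptor (CHRM1) at an unadjusted p under 0.05. Parotid against sublingual gland had 0.113% called (0.02% higher and 0.0934% lower), and 2 receptors (CHRM1 and ADRB1) at an unadjusted p under 0.05. Submandibular against sublingual gland had 0.0667% called (0.02% higher and 0.0467% lower), and 1 receptor (ADRB1) at an unadjusted p under 0.05. The gland comparisons share the pancreas libraries, so their lower CCKAR and SCTR rest on the same 5 values. The CCKAR calls in these counts are also not independent of the filter, which CCKAR passed through pancreas alone. The median log2 fold change of all genes was 0.45, 0.17 and 0.63 in the 3 gland comparisons, -0.44 in pancreas against liver and -0.0033 in glands against liver, and the size of each called receptor difference was larger than that shift.

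**Figure D4:**
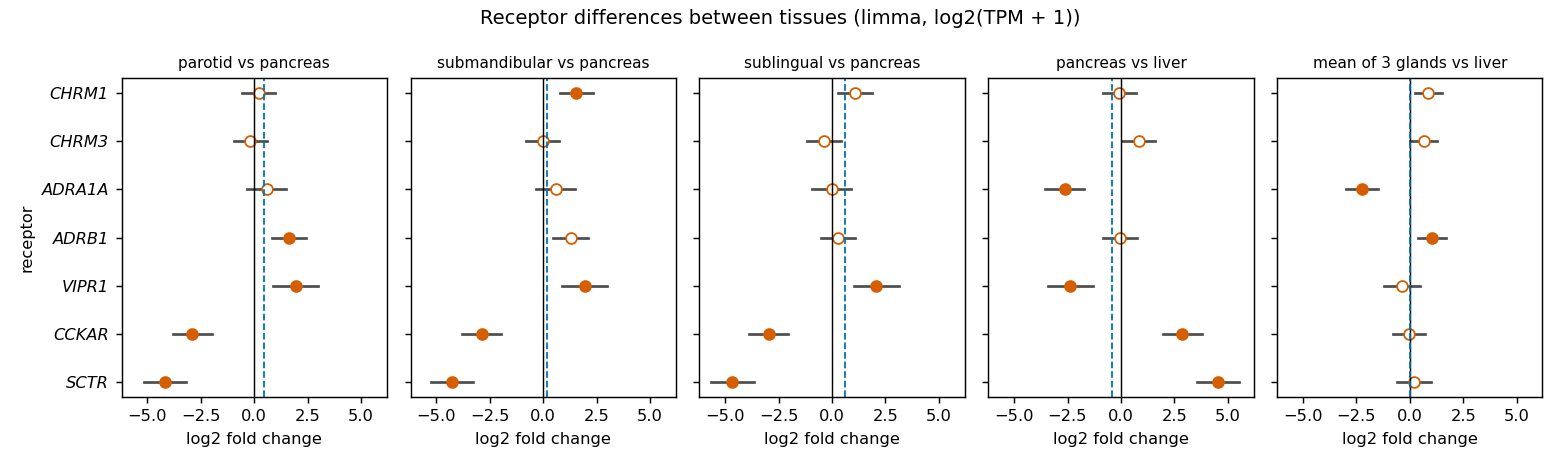
Log2 fold change of each receptor, first tissue over second, on the log2(TPM + 1) scale in 5 comparisons, with 95% confidence intervals from limma; filled points were called and the dashed blue line is the median of all genes. CCKAR and SCTR are at -2.88 or lower in each gland against pancreas, and VIPR1 is at 1.94 or higher.

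The other genes of the signalling pathways came from lists of related receptors, of signals, of the calcium and cyclic AMP arms and of receptor regulators. Among 20 related receptors, 8 were tested, and the muscarinic receptors CHRM2 and CHRM5 did not exceed 0.0946 and 0.0540 TPM in any library. CHRM4, another muscarinic receptor, was at 1.01 TPM in the parotid of baboon 2 and at most 0.0788 TPM elsewhere. Against pancreas, 2 of 8 were lower and 0 higher in parotid and in submandibular gland, and 2 were lower and 1 higher in sublingual gland. Of all genes, 2.4%, 2.81% and 2.49% were lower and 1.41%, 1.27% and 6.97% higher in parotid, submandibular and sublingual gland. The 2 lower receptors were ADRA2C, an alpha-2 adrenergic receptor, and GRPR, the gastrin-releasing peptide receptor. ADRA2C was at 6.42 to 10.7 TPM in pancreas and at most 7.24 TPM in a gland (submandibular gland of baboon 2), and it fell by 2.57 in parotid (SE 0.40, limma adjusted p = 0.000143). GRPR was at 0.260 to 2.37 TPM in pancreas and at most 0.140 TPM elsewhere, and it fell by 1.21 in parotid (SE 0.21, limma adjusted p = 0.000646), a call lost with only these tissues in the fit. It passed the filter through pancreas alone (mean 1.52 TPM), so its calls against pancreas are not independent of that filter. The 1 higher in sublingual gland was P2RY2, a nucleotide receptor, at 1.19 to 29.8 TPM there and 0.640 to 1.14 TPM in pancreas (log2 fold change 2.40, SE 0.46, limma adjusted p = 0.00152).

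In pancreas against liver 3 of 8 related receptors were lower and 2 higher (14.6% and 2.86% of all genes), and in the mean of the glands against liver 4 were lower and 0 higher (13.2% and 5% of all genes). P2RY2 was at 18.2 to 36.1 TPM in liver, overlapping with sublingual gland, and ADRA1B at 3.94 to 11.2 TPM. ADRA1B, a second alpha-1 receptor, did not exceed 1.501 TPM in any other tissue and fell by 2.65 from liver to pancreas (SE 0.31, limma adjusted p = 3.8e-07), beside the 2.63 of ADRA1A.

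Among nerve and hormone signals, 8 of 15 genes were tested: CHAT, SLC18A3, SLC5A7, VIP, ADCYAP1 and CCK were below the filter, and DBH was not analysed here. Low levels of CHAT and VIP do not bear on innervation, as nerve cell bodies can lie outside the section. SCT, which encodes secretin, the ligand of SCTR, was at 9.31, 21.0, 20.7, 14.1 and 38.7 TPM in the pancreas of baboons 1 to 5. It was at 1.44 to 3.18 TPM in liver and at 0 to 5.81 TPM in the glands, with no overlap with pancreas. SCT fell by 3.35 in parotid (SE 0.47, limma adjusted p = 3.3e-05), by 3.87 in submandibular gland and by 3.27 in sublingual gland, and was 2.63 higher in pancreas than in liver (SE 0.47, limma adjusted p = 0.000171). In parotid against pancreas 2 of 8 signals were lower and 0 higher, in submandibular and sublingual gland 1 was lower and 0 higher, in pancreas against liver 0 were lower and 2 higher, and in glands against liver 1 was lower (BCHE, a cholinesterase, by 3.10) and 0 higher. NPY made up the remaining calls, lost under 8 of 14 alternatives in parotid against pancreas and under 9 of 14 in pancreas against liver. Of all genes, 2.4%, 2.81% and 2.49% were lower and 1.41%, 1.27% and 6.97% higher in parotid, submandibular and sublingual gland against pancreas. In pancreas against liver 14.6% were lower and 2.86% higher, and in glands against liver 13.2% and 5%.

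Of 23 tested genes of the calcium arm, the genes higher than in pancreas numbered 6 (parotid), 4 (submandibular) and 6 (sublingual gland), with 0 lower. Of all genes, 1.41%, 1.27% and 6.97% were higher and 2.4%, 2.81% and 2.49% lower in these comparisons. The list's median log2 fold change was 0.98, 0.62 and 0.89 beside 0.45, 0.17 and 0.63 for all genes. KCNN4, a calcium-activated potassium channel, was at 14.8 to 49.8 TPM in parotid, 18.9 to 42.6 TPM in submandibular gland and 1.94 to 3.54 TPM in pancreas. Its parotid level rose by 2.83 (SE 0.58, limma adjusted p = 0.00336) and by 3.22 in submandibular gland (adjusted p = 0.00081 by limma), the former lost without baboon 3. ATP2A3, a calcium pump of the endoplasmic reticulum, rose by 2.13 and 2.33 in the same glands (SE 0.48 each), calls lost without baboon 3 and, in parotid, without baboon 5. ANO1, the apical calcium-activated chloride channel, was at 1.61 to 24.9 TPM in parotid and 0.717 to 1.27 TPM in pancreas (a rise of 2.37, SE 0.61, limma adjusted p = 0.0248). ANO1 lost this call under TMM scaling and without baboon 1, 3 or 4. Without baboon 3 the counts of higher genes in parotid, submandibular and sublingual gland were 0, 1 and 0. Without baboon 1 they were 2, 2 and 0, without baboon 4 they were 3, 2 and 3, and without baboon 5 they were 4, 5 and 1. Without baboon 2 they were 7, 4 and 8. TMM scaling gave 4, 4 and 0, and without the 4 gland libraries low in AQP5 they were 6, 5 and 10. The share of all genes called, in either direction, changed as well. In sublingual gland against pancreas it was 2.61%, 20.5%, 3.35%, 3.88% and 6.26% without baboons 1 to 5 in turn. It was 11.5% there under TMM scaling and 28.2% without the libraries low in AQP5. Of those called genes 38.8% and 91% were higher, against 73.6% of the 9.47% called in the main fit. Without baboons 1 to 5 in turn, 35.4%, 87.2%, 44.6%, 54.3% and 55% of the genes called there were higher. The list counts are of higher genes only, so they cannot be set against a share in both directions alone. Without baboon 3 the share was 2.09% in parotid and 2.16% in submandibular gland, with 11.4% and 15.3% of the called genes higher. In pancreas against liver 0 of 23 were higher and 3 lower, a share near the 14.6% of all genes that were lower: ANO1 by 3.16, ORAI1 by 2.34 and ITPR2 by 1.03, and in glands against liver, where 5% of all genes were higher, 4 were higher (KCNN4 by 2.55, ATP2A3 by 2.06 and PLCB4 by 1.82 among them) and 0 lower.

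Of 21 tested genes of the cyclic AMP arm, 1 was higher in parotid (PDE4B, a cyclic AMP phosphodiesterase, by 1.64), 0 in submandibular gland and 3 in sublingual gland (ADCY8, PDE4B and ADCY9, by 1.70, 1.52 and 1.27), and 0 were lower. Of all genes, 1.41%, 1.27% and 6.97% were higher and 2.4%, 2.81% and 2.49% lower in these glands against pancreas. The sublingual count was 8 without baboon 2, 1 without baboon 3 or 4, and 0 without baboon 1 or 5. It was 8 without the libraries low in AQP5. The share of all genes called there, with higher and lower genes counted together, moved the same way in these settings. That share was 20.5% without baboon 2, 3.35% and 3.88% without baboons 3 and 4, and 2.61% and 6.26% without baboons 1 and 5. Without the libraries low in AQP5 it was 28.2%. Whether these changes are particular to this list was not tested. The parotid count was 0 without baboon 1, 2, 3 or 5, without the libraries low in AQP5 and without the block. TMM scaling gave 1 higher and 1 lower in each gland. The share of all genes called in sublingual gland was then 11.5%, against 9.47% in the main fit. Of those called, 38.8% were higher under TMM scaling and 73.6% in the main fit. In submandibular gland, where limma called 0, 2 of 21 had an unadjusted p under 0.05. ADCY1, an adenylyl cyclase, was a liver gene in these data, at 7.95 to 15.8 TPM in liver and at most 3.69 TPM elsewhere, lower in pancreas than in liver by 2.36 in size (SE 0.38, limma adjusted p = 4.87e-05). In pancreas against liver it was the 1 lower gene of 21 and 0 were higher (14.6% and 2.86% of all genes). In glands against liver 2 of 21 were higher and 2 lower (5% and 13.2% of all genes).

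Of 15 receptor regulators, 1 was lower than in pancreas in all 3 glands. It was RAMP1, an accessory protein of peptide receptors, at 89.1 to 142 TPM in pancreas. RAMP1 fell by 3.86 in parotid (SE 0.65, limma adjusted p = 0.000368), fell by 4.39 in submandibular gland (adjusted p = 6.78e-05 by limma) and fell by 2.44 in sublingual gland (adjusted p = 0.0219 by limma). The sublingual call was lost without baboon 1, 3 or 4, and the sublingual library of baboon 2, dominated by skeletal muscle genes, held 151 TPM. GRK5, a receptor kinase, was the 1 higher in parotid (by 2.23) and in sublingual gland (by 1.73), and 0 were higher in submandibular gland. Both GRK5 calls were lost without baboon 3 or 5. Beside these counts, 2.4%, 2.81% and 2.49% of all genes were lower and 1.41%, 1.27% and 6.97% higher in parotid, submandibular and sublingual gland. In liver RGS16, which shortens G protein signals, was at 39.6 to 92.2 TPM (and at 84.4 TPM in the submandibular library of baboon 2), and it was 4.37 lower in size in pancreas (SE 0.76, limma adjusted p = 0.000121). In pancreas against liver 1 of 15 was higher and 2 were lower, beside 2.86% and 14.6% of all genes, and in glands against liver 1 was higher and 1 lower, beside 5% and 13.2%.

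In gene order on the Panubis1.0 assembly, used only for names and neighbours since no source used here states the build of the values, 1 of the 7 receptors had a direct neighbour among the 3 genes most like it; a neighbour of CHRM3 known by a LOC number was not among the genes compared. CFAP221, a gene of motile cilia, lies next to SCTR and had the highest correlation with it (Pearson r = 0.96 over 25 libraries), ahead of BRSK2 (0.96) and ENOX1 (0.95). CFAP221 was at 1.51, 0.968, 1.00, 1.29 and 1.56 TPM in the pancreas of baboons 1 to 5, or 1.27 ± 0.275 TPM (SD, n = 5), where SCTR was at 37.7 TPM. Outside pancreas its highest library was the parotid of baboon 2, at 0.564 TPM, the same library in which SCTR was at 17.7 TPM, and the other 19 were at most 0.0722 TPM. CFAP221 was chosen by its correlation over the same libraries, so this likeness is not independent of that choice. Whether reads of SCTR and CFAP221 were kept apart by the quantification was not tested.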

How the data were processed

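Values were analysed for 25 libraries, 5 tissues of 5 baboons, grouped by the labels. The authors deposited TPM per gene, and the submitters' processing notes name kallisto among other tools; its version, index, build and annotation are not given in the sources used here. TPM keeps no depth, so no counting error is given, and a few dominant genes lower all others. The model, run in R 4.3.3 with the package limma 3.58.1 and its trended eBayes, took log2(TPM + 1) with tissue and animal as terms, over the 14991 genes whose mean reached 1 TPM in any tissue. Animal numbers in the labels pair the libraries; deviations of same-animal libraries correlated by 0.161 on average and those of different animals by -0.0354. The fit was tested on simulated data. Values per library, percentiles and figures used Python 3.11.15, pandas 2.3.3, numpy 2.4.6 and matplotlib 3.10.9.

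The receptors, lists and tests were chosen with earlier results of these data known. Fold changes are given for called receptors and, where none was called, for the largest tissue pair; of each list, the 3 called genes with the largest change per comparison could be named, and other genes named were chosen after their values were seen. Likeness was Pearson's r of log2(TPM + 1) among symbols not made of LOC and digits. TMM and median-of-ratios scaling were computed from the TPM values. Some genes that these rules would name are not reported here.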

Additional observations from a re-analysis of the deposited data

Results flagged for a closer look

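Of 35 sets of 5 values (7 receptors in 5 tissues, in TPM), 8 held a value whose gap to the nearest other exceeded 0.71 of the whole range. This is Dixon's 95% limit for 5 values, by which chance flags about 1 in 20 sets of normally distributed values. TPM values were not shown to be so distributed, and all 8 flagged values were the highest of their set. The 8 of 35 can therefore not be read as an excess over chance. CCKAR in the pancreas of baboon 1 was at 46.6 TPM, and the next animal was at 7.94 TPM. SCTR in the parotid of baboon 2 was at 17.7 TPM, and the next at 0.580 TPM. ADRA1A was at 5.16 TPM in the parotid of baboon 2 and at 4.84 TPM in the submandibular gland of baboon 5, with the next libraries at 0.673 and 0.894 TPM. CHRM3 in the sublingual gland of baboon 5 was at 3.87 TPM, against 0.456 TPM in the next. The remaining 3 were highest in their set but at low levels: CHRM1 in the parotid of baboon 1 (0.665 TPM), CCKAR in the submandibular gland of baboon 2 (0.506 TPM) and ADRB1 in the pancreas of baboon 2 (0.392 TPM).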

How the results depend on the processing

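No called receptor difference, nor that of CHRM3 between pancreas and liver, changed sign under the alternatives run for it. The 14 calls for SCTR, CCKAR, ADRA1A and, in pancreas against liver, VIPR1 were kept under all of them. Those for CCKAR are all against pancreas, the only tissue through which it passed the filter. The calls for CHRM1, ADRB1 and gland VIPR1 were not all kept, since each was lost without at least 1 animal. Fits with 4 animals have fewer samples. Leaving out 1 animal at a time gave 3 to 7 receptors for the 5 tissues, 2 to 4 in parotid, 2 to 5 in submandibular gland and 2 to 4 in sublingual gland against pancreas, 4 in pancreas against liver for each, and 1 to 3 for the glands against liver. For the 5 tissues, the share of all genes that differed in the fits without 1 animal is not given here. A filter at a mean of 5 TPM, which drops CHRM1, CHRM3 and ADRB1, gave 1 for the glands against liver. Without the replicate block the counts were 6, 4, 4, 3, 4 and 2, as with it, and each called receptor difference was also called without the pairing. The pancreas over liver difference of CHRM3 passed under TMM scaling, median-of-ratios scaling (1.08) and a pseudocount of 0.1 (2.17). Detection depends on the limit: above 0 TPM it was 24 libraries for CHRM1, 25 for CHRM3, 24 for ADRA1A, 25 for ADRB1, 23 for CCKAR and 25 for SCTR; at 0.1 TPM it was 16, 21, 17, 25 and 13 for the first 5 of these, and at 1 TPM it was 9 for SCTR. The share of all genes called in sublingual gland against pancreas ran from 2.61% without baboon 1 to 28.2% without the libraries low in AQP5 (9.47% as reported). In parotid it ran from 2.09% to 8.75%, in submandibular gland from 2.16% to 9.2%, in pancreas against liver from 11.4% to 34.6% and in glands against liver from 12.2% to 24.5%. Of the called genes, in sublingual gland against pancreas 73.6% were higher, and 38.8% under TMM scaling; in pancreas against liver these were 16.3% and 39%, and in glands against liver 27.5% and 38.3%. The alternative without the 2 libraries holding adipocyte genes was chosen after the data were seen.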
